A study of Mus musculus with 16 samples.

Results

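The immunoglobulin kappa variable (Igkv) genes are the germline segments from which B cells assemble the variable region of the kappa light chain. Their members here are all array rows that the platform annotation gives to 1 gene symbol starting with Igkv, which was 86 genes of the 30701 genes with a row of their own. Members were chosen by symbol and, where a gene has several rows, selected on the highest mean level over the 16 arrays, but no Igkv gene had more than 1 such row. The family as a whole was put forward with its levels in these groups already known, so its counts and medians between groups are descriptions. All 86 symbols were found in the RefSeq gene table (assembly GRCm38.p6), on chromosome 6, where 79 are typed as V segments and 7 as V segment pseudogenes. That table lists 162 Igkv genes in all. The members fall into 20 families by the first number of their symbol. Family 4 alone held 25 of them, and 8 families had 1 member each.

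Affymetrix expression arrays were hybridised with RNA of the mucosal layer of the proximal colon of male C57BL/6J mice. The comparison had 4 groups, 4 arrays of KO mice on sulindac, 3 of WT mice on sulindac, 3 of KO mice on the control diet and 6 of WT mice on the control diet. KO mice were VILcreMccf/f, in which the Villin-cre transgene removes Mcc from intestinal epithelial cells only, and WT mice were siblings of genotype Mccf/f without the transgene, so every mouse carried the floxed allele. Sulindac is an anti-inflammatory drug of the non-steroidal class. It was fed at 320 ppm, and control feed was given to the other mice. Feeding began at 6 weeks of age and lasted 10 weeks. On sulindac, only inflamed areas were sampled, called lesions below, and on the control diet matching normal mucosa was taken, so the drug and the choice of inflamed tissue cannot be told apart. No label says that arrays of 1 group come from separate animals, so the p-values measure the spread between these arrays.

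Each B cell joins 1 Igkv segment to a J segment by V(D)J recombination and, once it has matured into a plasma cell, transcribes the joined gene with the constant gene Igkc at a very high level. The colon lamina propria holds many plasma cells, most of which secrete IgA into the lumen through the epithelial receptor Pigr. In such tissue the level of 1 Igkv segment therefore follows both how much antibody RNA is present and which B cell clones supply it. In a bulk sample fewer plasma cells and less RNA per cell cannot be told apart.

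The values are RMA log2 intensities as the authors deposited them, and a difference of 1 log2 unit is a factor of 2. A row's level depends on its probes, so levels are compared between arrays and not between genes. Many Igkv segments are close copies, and how far the probes of 1 segment also bind RNA of another was not tested, so members of a family are not independent measurements. Array medians over all rows were close, at 4.93 to 5.05 in KO lesions, 4.90 to 4.97 in WT lesions, 4.95 to 5.03 in KO controls and 4.93 to 5.03 in WT controls. Mcc, the floxed gene, was at 6.39 to 6.48 in KO lesions, 7.09 to 7.40 in WT lesions, 6.43 to 6.71 in KO controls and 7.06 to 7.35 in WT controls, with no overlap between genotypes on either diet. The mean level of 11 epithelial markers was between 11.03 and 11.22 on every array, and all 4 groups overlapped in it. Numbers in the labels' descriptions form a series under 500, which holds all lesion arrays and WT controls 1 to 3, and a series above 500, which holds WT controls 4 to 6 and all KO controls. What the numbers stand for is not stated, and for the KO response they cannot be told apart from the diet.

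The members differed in level. Of the 86, 32 exceeded the array's own median on all 16 arrays, and 10 stayed under the median of the array medians on every array. Their median level was 4.73, 6.33, 5.84 and 6.39 in KO lesions 1 to 4, and 6.43, 7.30 and 6.28 in WT lesions 1 to 3. It was 5.49, 5.49 and 5.77 in KO controls, and 5.42, 5.58 and 5.94 as the lowest, median and highest of the 6 WT controls. All WT lesions lay above all WT controls, and KO lesion 1 lay below every other array while the other KO lesions lay above or among the controls. WT lesion 2 was the highest of the 16 arrays for 47 of the 86 members, and KO lesion 1 was the lowest for 43. Results are therefore given with and without these 2 arrays.

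**Figure D1:**
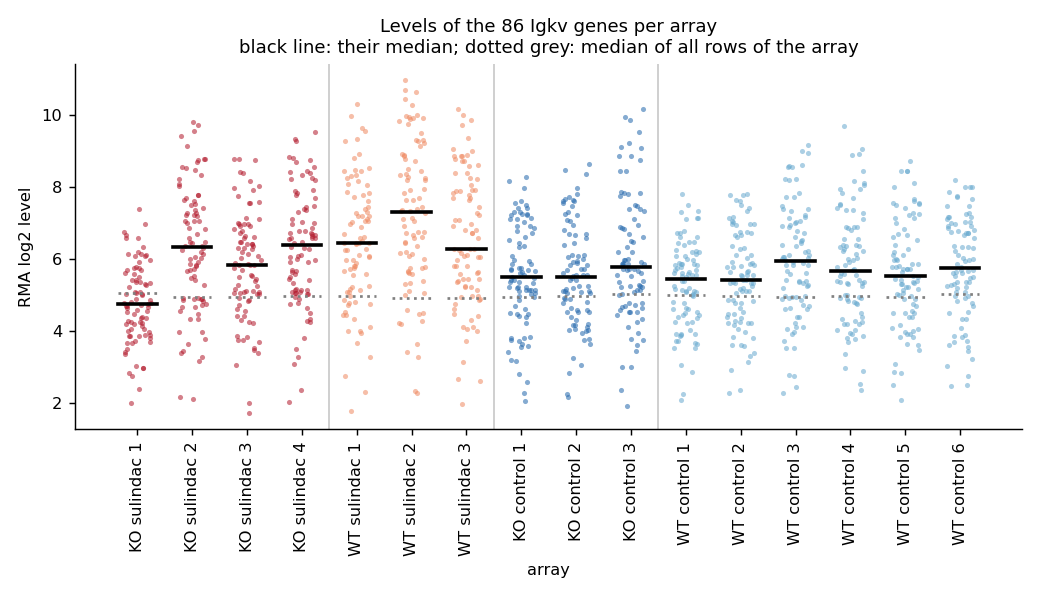
Levels of the 86 Igkv genes on each of the 16 arrays (y axis, RMA log2 level; x axis, arrays by group). Each point is 1 gene, the black line is the median of the 86 genes and the dotted grey line the median of all rows on that array; the black line is lowest in KO sulindac 1 (4.73) and highest in WT sulindac 2 (7.30).

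The spread within groups was wide. The members' median standard deviation was 0.67 in KO lesions, 0.59 in WT lesions, 0.40 in KO controls and 0.48 in WT controls, against 0.13, 0.11, 0.11 and 0.13 over all genes in the same groups. Without KO lesion 1 the members' median in KO lesions was 0.39. This spread sets the size that a difference had to reach to be called.

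**Figure D2:**
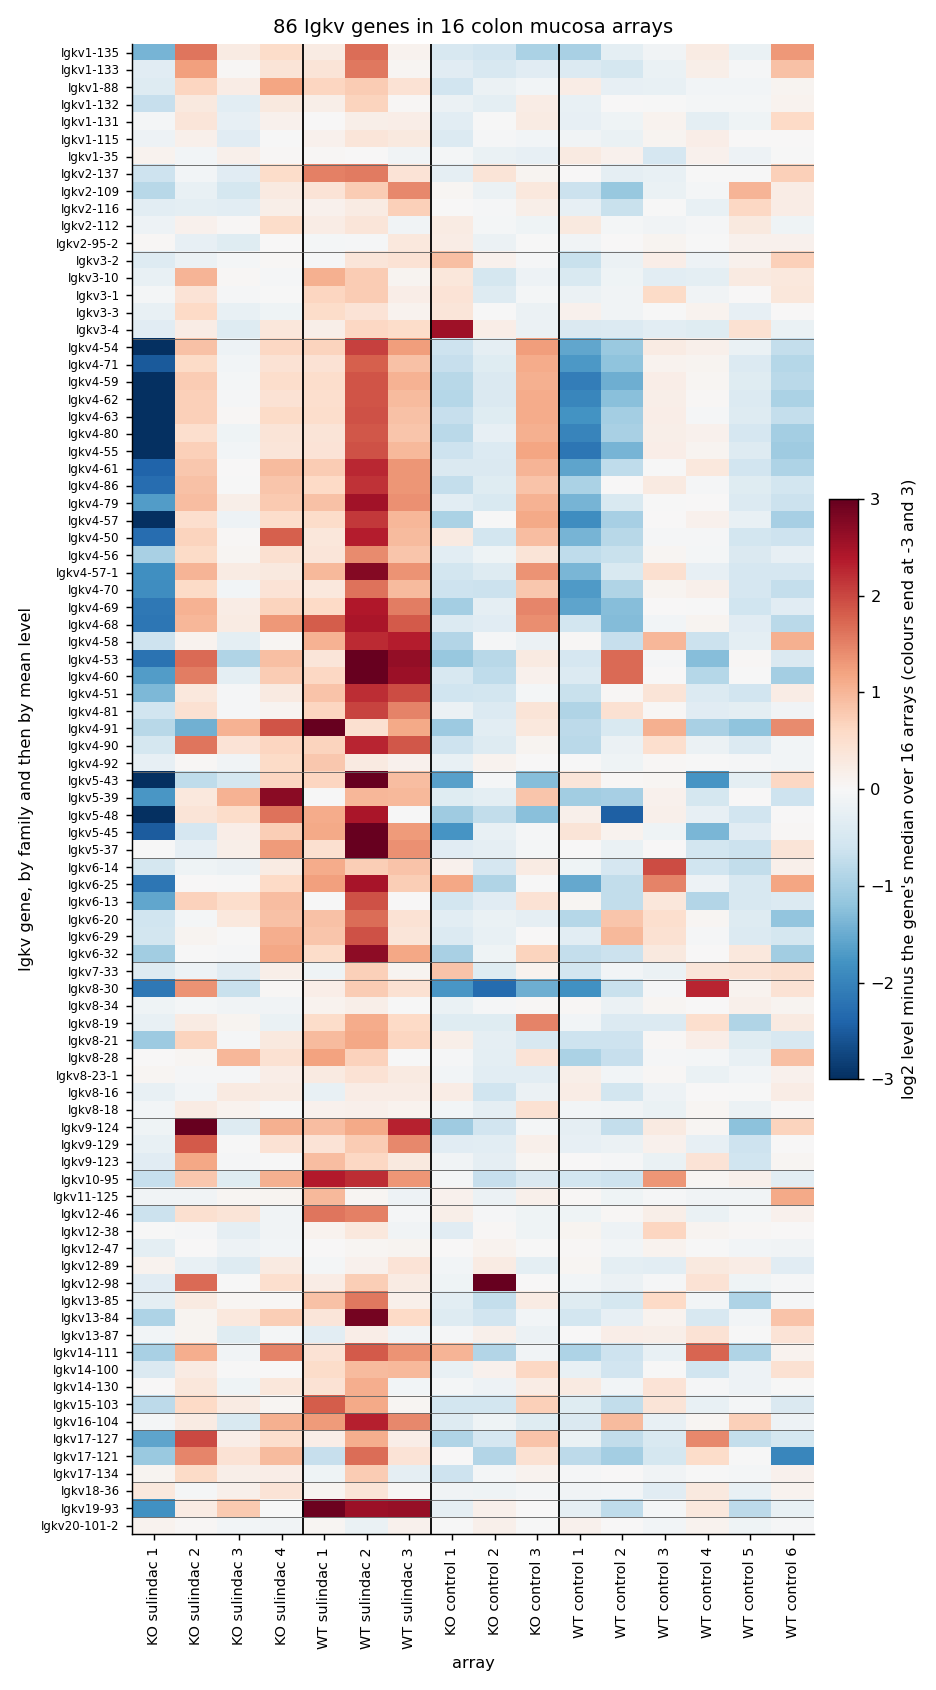
The 86 Igkv genes (rows, by family and then by mean level) on 16 arrays (columns; black lines part the groups, thin grey lines the families). Colour is the log2 level minus the gene's median over the 16 arrays, red for higher and blue for lower, with colours ending at 3 units; most family 4 rows are blue in KO sulindac 1 and red in WT sulindac 2, and Igkv19-93 is red in the 3 WT sulindac arrays.

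In WT mice the Igkv genes were higher in sulindac lesions than in control mucosa. Of the 86 members, 24 rose and none fell at an adjusted p under 0.05 (limma, Benjamini-Hochberg over all 30701 genes, two-sided), which is 27.9% of members, against 6.98% of all genes that rose and 8.36% that fell (15.3% in either direction). Before adjustment 56 members had a p under 0.05, against 27.9% of all genes. The difference was above 0 for 84 members, against 35.4% of all genes, and its median was 1.07, against -0.06 over all genes. All 3 WT lesions lay above all 6 WT controls for 35 members, or 40.7%, against 8.15% of all genes. The called members came from 12 of the 20 families.

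Igkv19-93, the only member of its family, differed most between WT lesions and WT controls. Its level was 10.32, 9.94 and 9.99 in WT lesions, and 6.59, 7.13 and 7.70 as the lowest, median and highest of the WT controls. The 3 lesions lay within a narrow band, above all other arrays of the series. The difference was 3.0 (SE 0.40), an 8.02-fold higher level, with an adjusted p of 1.04e-04 by limma. It was called in every alternative setting tried, with a largest adjusted p of 0.00504.

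The members with the next lowest p-values in this comparison were Igkv4-81, Igkv4-51 and Igkv10-95. Igkv4-81 was at 5.97, 7.35 and 6.81 in WT lesions, and at 4.43, 5.13 and 5.78 as the lowest, median and highest of the WT controls. Igkv4-51 was at 6.58, 7.94 and 7.69 in WT lesions, against 5.07, 5.54 and 6.12 in the same order for WT controls. Lesions and controls did not overlap for either gene, and the differences were 1.57 (SE 0.31) for Igkv4-81 and 1.84 (SE 0.36) for Igkv4-51, with adjusted p-values of 0.00232 and 0.00243 by limma. Igkv10-95 was at 9.65, 9.49 and 8.60 in WT lesions, and at 6.65, 7.16 and 8.61 as the lowest, median and highest of the WT controls. One WT control reached the level of the lowest lesion, and the difference was 1.96 (SE 0.43, adjusted p 0.00531, limma).

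All 25 members of family 4 were higher on average in WT lesions, by 0.44 to 2.53. Of these 11 were called, against 6.98% of all genes, and for 21 the groups did not overlap, against 8.15% of all genes. Its median difference was 1.83, against 0.69 for the 61 members of other families, of which 13 were called. The mean over family 4 was 7.60, 8.89 and 8.18 in WT lesions, and 5.63, 6.41 and 7.05 as the lowest, median and highest of the WT controls, with no overlap. Igkv4-54 stood for those of its family that were not called. It was at 9.57, 10.97 and 10.16 in WT lesions and at 7.34, 8.45 and 9.17 as the lowest, median and highest of WT controls. These groups did not overlap either, yet with the spread of the KO lesions in the shared fit the difference of 1.85 (SE 0.70) had an adjusted p of 0.0924. Family 4 segments lie within a stretch of 56 Igkv genes in the RefSeq order, 33 of which are of family 4.

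The 6 members with the highest mean levels were Igkv4-54, Igkv4-71, Igkv4-59, Igkv15-103, Igkv4-62 and Igkv4-63, of which 5 are of family 4. Among these Igkv15-103 was called in WT mice, with 9.98, 9.30 and 8.23 in WT lesions against 7.43, 7.87 and 8.54 as the lowest, median and highest of WT controls (1.25, SE 0.38, adjusted p 0.0367, limma). Its groups overlapped, whereas those of Igkv4-71, Igkv4-59, Igkv4-62 and Igkv4-63 did not. These 4 had differences of 1.70 to 1.90 and adjusted p-values of 0.0779 to 0.127 by limma, so none was called. Igkv4-53, with a wide spread within groups, was at 6.45, 9.29 and 8.72 in WT lesions and at 4.79, 5.84 and 7.78 as the lowest, median and highest of WT controls, overlapping and not called (2.16, SE 0.81, adjusted p 0.0872, limma).

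Of the highest-mean members of other families, Igkv2-137, Igkv13-85 and Igkv12-46 were called in WT mice, with differences of 1.13, 1.10 and 1.04 and adjusted p-values of 0.0124, 0.0272 and 0.0249 by limma. In each of the 3 the lesions overlapped the controls. Igkv14-111, Igkv6-14, Igkv17-127, Igkv1-135 and Igkv3-2 were not called, with differences of 1.34, 0.88, 0.69, 0.68 and 0.25. Of the pseudogenes, Igkv2-95-2 was at 1.98 to 2.65 on all arrays and Igkv12-47 at 5.42 to 5.83, and neither was called. Igkv4-56, a pseudogene of family 4, was called higher in WT lesions, with a difference of 1.22. It was at 7.30, 8.37 and 7.79 in WT lesions, without overlap. The lowest, median and highest of its WT controls were 6.19, 6.61 and 7.00. Igkv17-134, another pseudogene, was at 2.26 to 3.64 and had the highest difference of a member between KO and WT lesions, 0.14 (SE 0.21, adjusted p 0.772, limma).

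The other families differed in size of response. In family 5 all 5 members were higher in WT lesions, 2 of them called, with a median of 1.80. In family 6 all 6 were higher, 1 of them called, with a median of 1.10. The 7 members of family 1 had differences between 0.01 and 0.70, and none was called. Igkv13-87, a pseudogene and 1 of the 2 members whose difference was not above 0, was at 1.77, 2.27 and 1.97 in WT lesions and at 2.07, 2.27 and 2.51 as the lowest, median and highest of WT controls. These levels overlapped and lay far under the array medians.

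The number of called members depended on WT lesion 2. Without it 6 members were called higher (Igkv10-95, Igkv14-100, Igkv19-93, Igkv4-51, Igkv4-58 and Igkv4-81), against 5.17% of all genes, and the median difference was 0.88. Only 2 WT lesions then remained, which also lowers the power of the fit. Both lay above all WT controls for 35 members, against 10.5% of all genes, and below them for 2, against 14.7%. Without KO lesion 1, which enters only the shared estimate of spread, 38 were called higher, against 7.5% of all genes. With only the 3 WT controls of the lower number series, 11 were called, of which 8 were among the 24, against 5.16% of all genes, and the median stayed above 0. With the replicate number as a block 27 were called, 17 of them among the 24, against 5.47% of all genes.

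**Figure D3:**
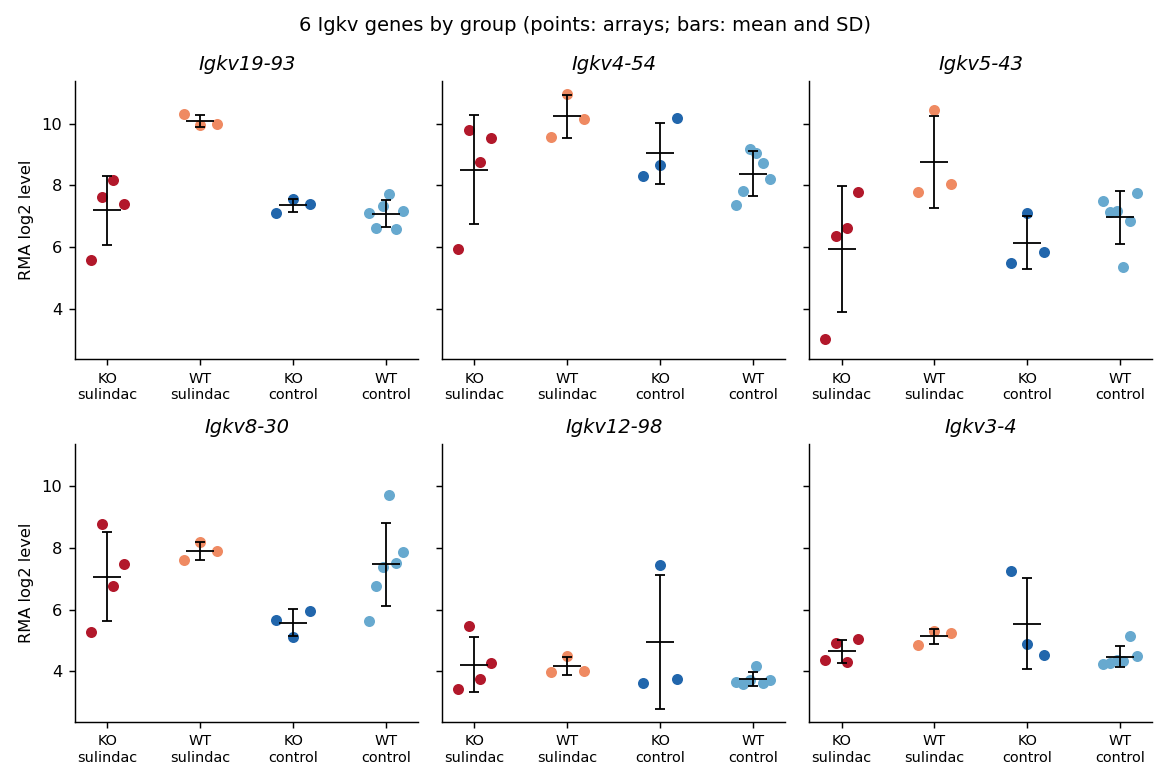
Levels of 6 Igkv genes by group (y axis, RMA log2 level; points, arrays; bars, mean and SD; 4 KO sulindac, 3 WT sulindac, 3 KO control and 6 WT control arrays). Igkv19-93 is at 9.94 to 10.32 in WT sulindac arrays and at 5.57 to 8.16 in KO sulindac arrays; Igkv12-98 and Igkv3-4 each have 1 KO control array far above the rest.

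The lists of other cell types moved in the same comparison. All 10 measured monocyte and macrophage markers were higher on average in WT lesions and 9 were called, with a mean level of 7.71 to 7.86 in WT lesions and 5.95 to 6.30 in WT controls. Of the 8 neutrophil markers 7 were called higher (7.10 to 7.79 in WT lesions, 4.67 to 4.97 in WT controls), and of 7 fibroblast and stromal markers 6 (7.15 to 7.30 in WT lesions, 6.05 to 6.28 in WT controls). Of 8 T and NK cell markers 4 were called higher. Of all genes 6.98% were called higher in this comparison. The part of these cells in the Igkv result was not tested.

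Of 18 measured plasma cell genes, 3 rose and 2 fell in WT lesions, against 6.98% and 8.36% of all genes. A difference above 0 was seen for 12 of them, and the median difference was 0.04. Prdm1, a transcription factor of plasma cell differentiation, and the surface receptor Slamf7 rose by 1.54 and 1.46 (SE 0.19 and 0.16), with adjusted p-values of 5.13e-05 and 1.88e-05 by limma, and the coactivator Pou2af1 by 0.29. The endoplasmic reticulum protein Txndc5 fell by 0.64 (-0.64, adjusted p 0.0213, limma), and the chemokine receptor Ccr10 by 0.24 (-0.24). The list's mean level was 7.04, 7.02 and 6.90 in WT lesions and at most 6.82 in WT controls, without overlap. Jchain, which links the units of dimeric IgA, was at 7.85, 8.59 and 7.66 in WT lesions and at 6.15, 7.07 and 7.24 as the lowest, median and highest of WT controls. These did not overlap, but the difference of 1.11 (SE 0.50) had an adjusted p of 0.161 by limma. Mzb1, a chaperone of antibody assembly, was not called (0.19, adjusted p 0.239, limma).

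In KO mice the Igkv genes did not show a shared change between lesions and control mucosa. Of the 86 members 1 was called, Igkv8-23-1, against 21.1% of all genes called in either direction and 8.98% called higher. Before adjustment 6 members had a p under 0.05, against 31.0% of all genes. The difference was above 0 for 48 members, against 51.3% of all genes, with a median of 0.07, against 0.01. For 2 members, Igkv8-23-1 and Igkv18-36, all KO lesions lay above all KO controls, against 12.7% of all genes. Igkv18-36 was named after its values were seen.

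Igkv8-23-1 was at 5.0, 4.91, 4.90 and 5.15 in KO lesions and at 4.86, 4.64 and 4.63 in KO controls. The groups did not overlap, and the difference was small, 0.28 (SE 0.10, adjusted p 0.0473, limma). The call was lost in 17 of 28 alternatives and leave-one-out fits, with adjusted p-values between 0.0326 and 0.548 over them. In WT mice the same gene was at 5.21, 5.37 and 5.22 in lesions and at 4.74, 4.92 and 5.11 as the lowest, median and highest of controls, also without overlap and called (0.33, adjusted p 0.0189, limma).

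Igkv9-124 had the largest difference of a member in KO mice. It was at 6.13, 9.73, 5.87 and 7.31 in KO lesions and at 5.20, 5.68 and 6.19 in KO controls. KO lesion 2 was far above the other lesions, 2 of which lay among the controls, and the difference of 1.57 (SE 0.71) was not called (adjusted p 0.146, limma). Igkv3-4 had the lowest difference, -0.90 (SE 0.46, adjusted p 0.202, limma), with 4.36, 4.91, 4.29 and 5.04 in KO lesions against 7.24, 4.89 and 4.52 in KO controls. KO control 1 alone stood above the lesions.

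In family 4 no member was called in KO mice, 9 of 25 were above 0, and the median difference was -0.11. The family's mean level was 4.79, 7.53, 6.85 and 7.51 in KO lesions and 6.23, 6.47 and 7.61 in KO controls. The lesions fell on both sides of the controls. Igkv4-57 was an example, at 3.96, 8.23, 7.55 and 8.24 in KO lesions and at 6.77, 7.71 and 8.86 in KO controls.

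Among the arrays left out singly, KO lesion 1 moved the members' median KO response most. Without it the members' median difference was 0.40, against -0.02 over all genes, and 13 members lay higher in all remaining KO lesions than in all KO controls, against 13.8% of all genes, a similar share. Then 1 member, Igkv1-88, was called, against 7.68% of all genes called higher and 9.76% called lower. The array also had the lowest levels of Jchain (4.58) and Pigr (11.11) of the 16, while its epithelial marker mean (11.22) was the highest and its neutrophil marker mean (8.91) lay among those of the KO lesions (8.09 to 9.56). Its plasma cell list mean (6.69) was the lowest of the KO lesions but lay among those of the WT controls (6.65 to 6.82). Its mean over genes of IgA support and transport (6.28) was above all controls, which reached at most 6.25. The cause was not tested. The drug and the series of description numbers cannot be told apart in the KO response.

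**Figure D4:**
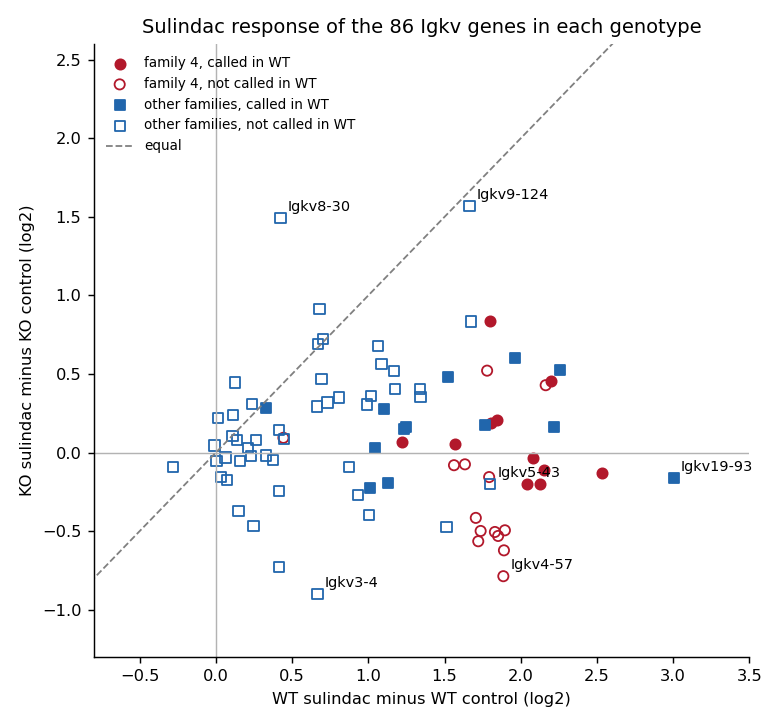
Sulindac response of the 86 Igkv genes in WT mice (x axis, WT sulindac minus WT control, log2) and in KO mice (y axis, KO sulindac minus KO control, log2). Red circles are family 4, blue squares other families, filled where called in WT mice, and the dashed line marks equal responses; 76 of 86 genes lie below it, with Igkv19-93 at 3.0 in WT and -0.16 in KO mice.

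KO lesions had lower Igkv levels than WT lesions. The difference was under 0 for all but 4 of the 86 members, whereas 60.0% of all genes were above 0, and the median was -0.85, against 0.04 over all genes. At an adjusted p under 0.05 only Igkv19-93 was called lower and none higher, against 0.0586% of all genes called lower, 0.248% called higher and 0.306% called in either direction. Before adjustment 40 members had a p under 0.05, or 46.5%, against 13.4% of all genes. All KO lesions lay below all WT lesions for 16 members, or 18.6%, against 3.92% of all genes. Among the members, 5 were in the 10 lowest differences of all 30701 genes. These comparisons use the same WT lesion arrays as the WT response.

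Igkv19-93 was at 5.57, 7.63, 8.16 and 7.38 in KO lesions and at 10.32, 9.94 and 9.99 in WT lesions. The KO lesions lay apart from the WT lesions and around the KO controls, which were at 7.10, 7.54 and 7.39. The difference of -2.90 (SE 0.43, adjusted p 0.0210, limma) was the lowest of all genes tested and corresponds to a 7.49-fold lower level in KO lesions. Same-numbered lesion arrays deviated together in this comparison, and with the replicate number as a block the difference was -3.02 with an adjusted p of 0.0999. The call was also lost when any 1 WT lesion was left out (adjusted p 0.0698 to 0.0813), when only the lesion arrays were fitted (0.445) and with arrays of the lower number series alone (0.201), while the difference stayed between -3.23 and -2.37 in every setting tried.

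Igkv4-51 and Igkv4-58 came next by p-value. Igkv4-51 was at 4.38, 6.05, 5.69 and 6.00 in KO lesions and at 6.58, 7.94 and 7.69 in WT lesions. Igkv4-58 was at 5.41, 6.14, 5.74 and 6.09 in KO lesions and at 7.06, 8.27 and 8.39 in WT lesions. Neither overlapped between genotypes, and the differences of -1.87 (SE 0.39) and -2.06 (SE 0.44) had adjusted p-values of 0.0619 and 0.0625 by limma. Igkv4-81 differed by -1.40 (SE 0.33, adjusted p 0.0972, limma), with 4.76, 5.80, 5.28 and 5.40 in KO lesions against 5.97, 7.35 and 6.81 in WT lesions. Again no KO lesion reached a WT lesion.

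All 25 family 4 members were lower on average in KO lesions, with a median of -1.59, and none was called. For 5 of them the groups did not overlap, as for 11 of the 61 members of other families, against 3.92% of all genes. Igkv5-43, with a difference of -2.81 (SE 0.91, adjusted p 0.216, limma), was at 3.03, 6.37, 6.60 and 7.77 in KO lesions and at 7.77, 10.45 and 8.04 in WT lesions. Its highest KO lesion reached the lowest WT lesion, and 1 array of each genotype lay far from the others.

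Without KO lesion 1 the members' median difference between KO and WT lesions was -0.50, and without WT lesion 2 it was -0.58. Leaving out both, an alternative chosen after seeing the data, gave -0.30. The number of members lower in every KO lesion was 16 without KO lesion 1 and 16 without WT lesion 2 (5.20% and 8.27% of all genes), and 17 without both (10.8%).

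Neutrophil markers moved in the opposite direction in the same arrays. Their mean level was 8.91, 9.56, 8.09 and 9.42 in KO lesions and 7.79, 7.73 and 7.10 in WT lesions, without overlap. Of these markers 3 of 8 were called higher in KO lesions (Csf3r, Cxcr2 and Retnlg), against 0.248% of all genes. Of the 10 monocyte and macrophage markers none was called, with mean levels of 7.79 to 8.24 in KO lesions and 7.71 to 7.86 in WT lesions. Epithelial markers overlapped, at 11.09 to 11.22 in KO lesions and 11.13 to 11.22 in WT lesions, and none was called. With each array centred on the epithelial marker mean, the Igkv median difference was -0.82. The part of neutrophils in the Igkv difference was not tested.

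The sulindac response of the members was lower in KO than in WT mice, but no member's difference between responses was called. The interaction had a median of -0.95, against 0.06 over all genes, and 10 members were above 0, against 61.9% of all genes. Of all genes 1 was called, not an Igkv gene (0.00326% of all genes), and 25 members had an unadjusted p under 0.05, against 11.1% of all genes. Igkv19-93 had the lowest interaction of all genes, -3.17 (SE 0.59), with an adjusted p of 0.257 by limma. It was called without KO lesion 1 (adjusted p 0.0306) and without KO lesion 3 (0.00698), and its adjusted p ran up to 0.789 over the settings tried. Among the members, 6 were in the 10 lowest of all genes. At the other end, Igkv8-30 had the highest interaction of a member, 1.07 (SE 1.07, adjusted p 0.642, limma).

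On the control diet no Igkv gene was called between KO and WT mucosa, as was true of all 30701 genes (0%). Before adjustment 3 members had a p under 0.05, or 3.49%, against 2.09% of all genes by limma. The members' median difference was 0.02, and 46 of 86 were above 0, against 40.6% of all genes. For no member did the genotypes lie apart, against 1.20% of all genes lower and 0.195% higher in all KO controls.

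Igkv8-30 was at 5.67, 5.11 and 5.96 in KO controls and at 5.62, 7.45 and 9.70 as the lowest, median and highest of WT controls. Its difference of -1.89 (SE 0.72, adjusted p 1.0, limma) was the lowest of all genes tested, and 5 of the 6 WT controls lay above all KO controls, while WT control 1 lay among them. Without WT control 4, the highest, the difference was -1.45. Igkv12-98 was at 3.63, 7.46 and 3.76 in KO controls and at 3.58, 3.69 and 4.18 in WT controls in that order, with KO control 2 far above all others. Its difference of 1.21 became -0.05 without that array. Likewise Igkv3-4 was at 7.24, 4.89 and 4.52 in KO controls and at 4.25, 4.35 and 5.14 as the lowest, median and highest of WT controls, with 1 array, KO control 1, far above.

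The same 2 KO control arrays were high in B cell genes. Ms4a1, the B cell surface protein CD20, was at 4.81, 5.56 and 3.74 in KO controls and at 3.71, 3.80 and 4.27 as the lowest, median and highest of WT controls. Ighm, the IgM heavy chain, was at 6.45, 7.02 and 5.48 in KO controls and at 5.41, 5.50 and 5.73 in the same order for WT controls. KO controls 1 and 2 lay above all WT controls for both genes, and KO control 3 lay among them. The mean of the 17 measured B cell genes was 5.40, 5.72 and 5.06 in KO controls and 5.05 to 5.21 in WT controls. None of these genes was called, and the part of B cells in the 2 segments' levels was not tested.

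Levels of a segment that stood out on 1 array were common among the members. For 12 of 86, or 14.0%, the highest array lay over 1 log2 unit above the next, against 0.335% of all genes. The array differed between segments. It was WT lesion 2 for Igkv5-43 and 6 further members, KO control 2 for Igkv12-98, KO control 1 for Igkv3-4 and KO lesion 2 for Igkv9-124. For 10 members the lowest array lay over 1 unit under the next, and it was KO lesion 1 each time. Igkv19-93, Igkv4-54, Igkv4-57 and Igkv5-43 were among these. Most of the 10 were of family 4, whose rows are not independent measurements. The share over all genes was not computed for the lowest array. Igkv5-48, with a wide spread within groups, was at 2.97, 6.69, 6.83 and 7.91 in KO lesions and 7.39, 8.74 and 6.28 in WT lesions, and at 5.22, 5.55 and 5.03 in KO controls. Its lesions overlapped between genotypes, and KO lesion 1 was again the lowest array.

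Genes that act with the kappa chain were measured in part. Igkc, the lambda genes and the heavy-chain constant gene Igha had no row of their own and were not compared as single genes. The 1 kappa joining gene measured was at 6.02 to 6.43 in WT lesions and at 5.33 to 6.40 in WT controls. These levels overlapped, and the difference of 0.34 was not called. Of 14 measured genes of IgA support and transport, 3 rose and 4 fell in KO lesions against KO controls (8.98% and 12.1% of all genes). In WT lesions against WT controls 3 rose and 1 fell (6.98% and 8.36% of all genes). Tnfsf13b, the B cell survival factor BAFF, rose by 1.15 in KO lesions (adjusted p 0.00509, limma) and by 1.27 in WT lesions (adjusted p 0.00203, limma). Pigr, the epithelial receptor that carries dimeric IgA into the lumen, fell in KO lesions by 0.73 (-0.73, adjusted p 0.0176, limma), with 11.11, 12.41, 12.05 and 11.92 in KO lesions against 12.65, 12.51 and 12.63 in KO controls. All KO lesions lay below all KO controls. In WT mice its difference was -0.26 (adjusted p 0.394, limma).

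In KO mice the plasma cell list again moved both ways, with 4 of 18 genes higher and 3 lower and a median of -0.03. Of all genes 8.98% were called higher and 12.1% lower. Prdm1 and Slamf7 rose by 2.26 and 1.43, and Txndc5, Fkbp11 and Xbp1 fell by 1.17, 1.0 and 0.34 (-1.17, -1.0 and -0.34). Jchain was at 4.58, 7.57, 6.67 and 7.29 in KO lesions and at 6.75, 6.24 and 7.46 in KO controls, with lesions on both sides of the controls. Between the lesions Jchain was lower in KO than in WT arrays without overlap, by -1.51 (SE 0.54), but was not called (adjusted p 0.255, limma). KO lesion 1, at 4.58, was far under the other KO lesions. Over the 18 plasma cell genes the median difference between KO and WT lesions was -0.08, with 6 above 0 and none called. The list's mean levels overlapped, at 6.69 to 6.96 in KO lesions and 6.90 to 7.04 in WT lesions. Of the 4 measured heavy-chain constant genes, Ighg1 rose in WT lesions by 0.65 (adjusted p 5.77e-04, limma), with 6.51, 6.41 and 6.27 in WT lesions against 5.54, 5.76 and 5.96 as the lowest, median and highest of WT controls. Ighe was the 1 called in KO lesions, by 0.24 (adjusted p 0.0334, limma). Of 17 B cell genes 1 fell in KO lesions, against 12.1% of all genes, and 1 rose in WT lesions, against 6.98% of all genes. These counts moved in 22 of 27 and in 9 of 28 alternatives.

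**Figure D5:**
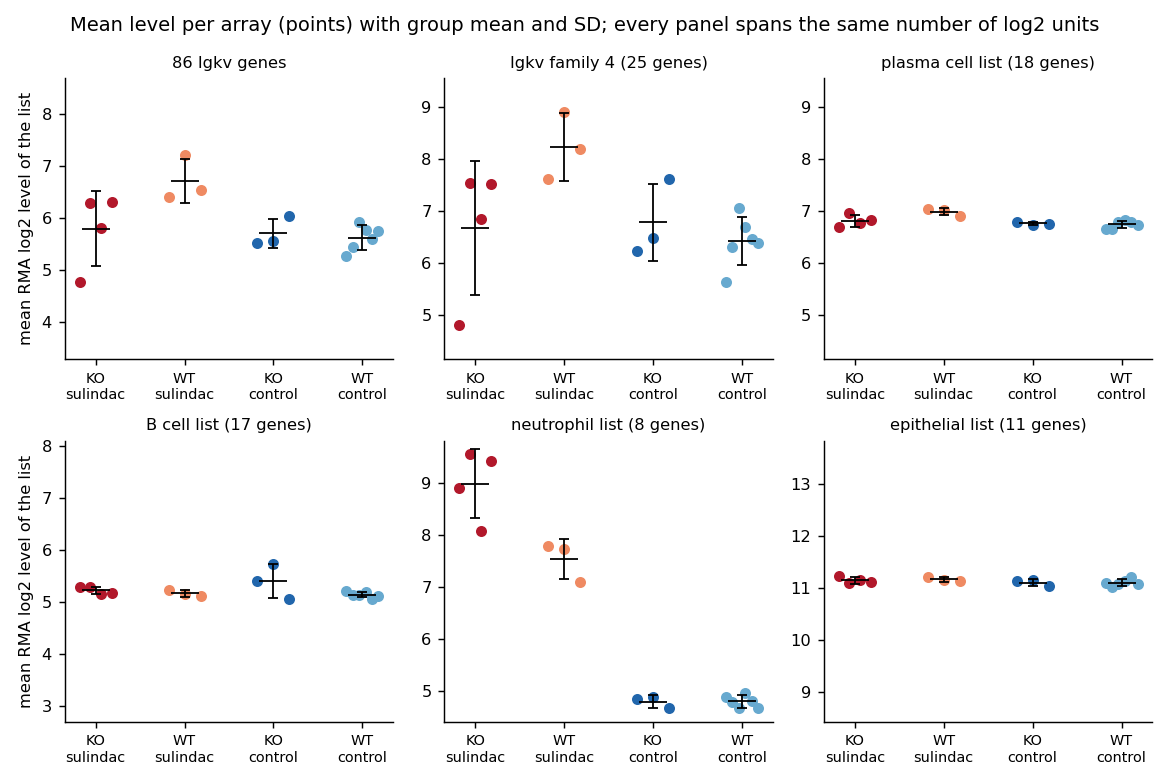
Mean RMA log2 level per array of the 86 Igkv genes, the 25 family 4 genes and 4 gene lists (points, arrays; bars, group mean and SD; every panel spans the same number of log2 units). The WT sulindac arrays are the highest group for the Igkv genes, while the neutrophil list is at 8.09 to 9.56 in KO sulindac arrays, 7.10 to 7.79 in WT sulindac arrays and under 5 in all controls.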

How the data were processed

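RNA of colon mucosa was measured on 16 single-colour Affymetrix arrays. The authors' deposited table holds log2 intensities, and per the submitters' processing notes these were made by RMA with Affymetrix Power Tools 1.16.1. RMA corrects background, quantile-normalises the arrays and summarises probes, so an array-wide shift is removed and a row's value mixes all RNA its probes bind. The genome build is not given in the sources used here.

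Of 72688 rows, 31258 had 1 gene symbol, 1492 had several and 39938 were unlisted in the platform annotation. Symbols were updated through RefSeq, and the highest-mean row was kept for each of 30701 genes. No filter on low values was set. One limma fit (version 3.58.1, R 4.3.3) of 4 group means over all 16 arrays, with eBayes, gave 5 comparisons, which share arrays. P-values were adjusted by Benjamini-Hochberg over all 30701 genes, two-sided, with a threshold of 0.05. The fit was tested on simulated data. The number of arrays limits the precision. Within groups no 2 arrays shared more than 0.0358% of values.

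Members and lists were chosen with earlier results of these data known, so counts and medians are set beside those of all genes. Genes named in the text were the 6 with the highest means, the 4 lowest p-values and both extremes in each comparison, the 4 widest within groups, the 2 lowest means, the highest of each family with 3 or more members, and 9 genes of the lists with Mcc. Genes outside this rule were picked after their values were seen, among them called genes of the lists.

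Between KO and WT lesions the correlations of same-numbered arrays' deviations from group means were 0.47, 0.30 and 0.54, every one over 0.1. No label states a pairing, so the replicate block was kept as an alternative. Alternatives were a replicate block, the description-number series, other rows, a low-value filter, other scalings and weights, and leaving out each array.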

Additional observations from a re-analysis of the deposited data

Results flagged for a closer look

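Some members had 1 array far from the others of its group, by Dixon's criterion on groups of 4 to 10 arrays. Over all 86 members this held for 5 in the KO lesions and 8 in the WT controls, and chance flags about 1 in 20 groups. Igkv4-57 was at 3.96 in KO lesion 1, while the other KO lesions were at 7.55 to 8.24. Igkv12-98 was at 4.18 in WT control 4, with the other WT controls at 3.58 to 3.71, and Igkv17-127 was at 7.51 in the same array, with the others at 5.32 to 5.87. Igkv2-137 was at 8.0 in WT control 6, against 7.30 for the next. Igkv3-4 was at 5.14 in WT control 5, against 4.48 for the next. Igkv5-48 was at 3.84 in WT control 2, against 5.71 for the next lowest. Igkv6-14 was at 8.55 in WT control 3, against 6.75 for the next. The array that stood out thus differed from segment to segment among the WT controls.

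Rows that list an Igkv symbol together with other symbols entered no comparison above. Some of them name segments that are also members, such as Igkv9-124 and Igkv6-14, so they are not independent of the members. Of these 15 rows, 8 were higher in all WT lesions than in all WT controls, against 8.15% of all genes. A difference above 0 was found for 14, against 35.4% of all genes, with a median of 1.15. In KO mice 9 were above 0, against 51.3% of all genes, with a median of 0.04. Between KO and WT lesions all 15 were below 0, with a median of -1.18, whereas 60.0% of all genes were above 0. For 5 rows all KO lesions lay below all WT lesions, against 3.92% of all genes. The row that lists Igkc with 13 other kappa symbols was at 5.17, 6.87, 6.32 and 6.58 in KO lesions, against 7.05, 7.36 and 6.71 in WT lesions. Control mucosa was at 6.23, 5.95 and 6.21 in KO mice and at 5.69 to 6.35 in WT mice. The WT lesions lay above the WT controls, and the KO lesions overlapped both the WT lesions and the KO controls.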

How the results depend on the processing

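Counts of called members moved with the processing, and the cause was not tested. For the WT response the main count of 24 was 11 with description numbers of the lower series only (5.16% of all genes higher), 46 with only the groups compared (7.82%), 39 with array weights (8.84%) and 13 (5.72%) with KO lesion 1 and WT lesion 2 both left out, and leaving out 1 array at a time gave 6 to 38. For the KO response the count of 1 was 0 with the replicate block, the number series as covariate or random block, only the groups compared, or centring on epithelial markers, 7 with array weights (11.7% of all genes higher, 16.1% lower), 5 with both arrays left out (7.55% and 9.46%), and 0 to 1 leaving out each array. Between KO and WT lesions the count of 1 was 0 with the replicate block (Igkv19-93 at -3.02, adjusted p 0.0999), with the lower series or with only the groups compared, 3 with low values filtered (0.113% of all genes lower), 4 with array weights (0.863% lower, against 0.0586% in the main setting), and 0 to 5 leaving out each array, the 5 without KO lesion 3, where 3.29% of all genes were lower. The interaction count of 0 was 0 to 1 leaving out each array, and its median was -0.34 with both arrays left out. In the other comparisons not every correlation of same-numbered arrays' deviations was over 0.1. They were 0.35, 0.17 and 0.0968 in WT, -0.15, -0.17 and -0.30 in KO and -0.32, -0.34 and -0.24 on the control diet. With the replicate block 27 members were called in WT, 17 of them among the 24. No called result reversed its direction. Among uncalled values near 0, the KO-response median turned to as low as -0.03 and the control-diet median to as low as -0.09 when 1 array was left out (-0.03 with array weights), Igkv12-98 on the control diet turned to -0.05 without KO control 2, and Igkv17-134 between lesions to -0.06 without WT lesion 3. The medians of the other comparisons kept within the spread between arrays under all but 1 alternative. The exception was the interaction median of -0.34, with KO lesion 1 and WT lesion 2 both left out. That spread was wide, at 0.41 in WT, 0.67 between lesions and 0.49 for the interaction. With the same arrays left out the median between lesions went from -0.85 to -0.30, a large loss that this spread still counts as kept. Leaving out 1 array at a time, the medians ran from 0.88 to 1.24 in WT, from -0.03 to 0.40 in KO, from -0.96 to -0.50 between lesions, from -0.09 to 0.08 on the control diet and from -1.09 to -0.62 for the interaction. Among single genes and lists, 1003 values under an alternative kept their call or size, 15 passed the threshold newly, 24 lost it and 47 counts of called list genes moved. Samples were few, so differences that were not called may be missed, and rows of related segments may share signal.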
